A study of Mus musculus with 144 samples.

Results

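The liver transcriptome of Bmal1-/- mice was compared with that of wild-type mice at zeitgeber time 18 (ZT18), 18 h after lights on and 6 h into the dark phase. The libraries were chosen by their labels alone (total liver RNA, ZT18, either genotype), which gave 6 Bmal1-/- and 6 wild-type libraries, 12 of the 144 in the series. The mice of both groups were male C57BL/6J animals kept under alternating 12 h light and 12 h dark periods, and food and water were always available, and the labels name no treatment for either group. The labels call the mutant Bmal1-/- and give neither the deleted exons, nor the age of the animals, nor any restriction of the deletion to one cell type. The same design was sampled at ZT2, ZT6, ZT10, ZT14 and ZT22, again with 6 libraries per genotype and time. Of those libraries 2 went against the male label: wild-type ZT22 library 5 held 404.5 CPM of Xist, the RNA of the inactive X chromosome, and 0.754 CPM of 4 Y-linked genes together, and Bmal1-/- ZT22 library 6 held 439 CPM of Xist with 128 CPM of the Y-linked genes. The other 70 libraries held at most 2.15 CPM of Xist and at least 87.6 CPM of the Y-linked genes, and the ZT18 libraries at most 0.165 CPM of Xist. The labels do not say that the 6 libraries of a group came from separate animals, so the p-values below measure the spread between these samples, which may be technical.

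BMAL1, encoded by Arntl, is the transcription factor that pairs with CLOCK or NPAS2 and binds E-box elements to drive the Period (Per) and cryptochrome (Cry) genes, the REV-ERB receptors Nr1d1 and Nr1d2, and output factors such as Dbp. PER and CRY proteins then inhibit the activator, while the REV-ERB repressors and the ROR activators compete for response elements in genes such as Arntl, Npas2 and Cry1. In the liver this oscillator acts together with feeding time on lipid, glucose and drug metabolism. Mice eat mainly at night, so ZT18 falls in the feeding phase.

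Expression was measured by 3′ mRNA-seq, which yields about one tag per transcript from near its polyadenylation site, so a count does not scale with transcript length. Wild-type libraries held 6580945 to 9831142 counts in genes and Bmal1-/- libraries 6601061 to 9343498. Levels are given as CPM, the usual scaling of a count to its library's total, here after correction by edgeR's TMM factors. Changes are log2 differences, Bmal1-/- minus wild type, from edgeR's quasi-likelihood test, and a gene is called changed at a Benjamini-Hochberg adjusted p below 0.05 over all genes tested. The TMM factors averaged 0.922 in wild type and 1.05 in Bmal1-/-, so scaling by total counts instead shifts changes up by about 0.19 on the log2 scale. Mitochondrially encoded transcripts took 15.3% to 19.4% of counts in wild type and 13.1% to 15.8% in Bmal1-/-, and albumin (Alb) 3.57% to 6.60% and 2.31% to 4.31%. In bulk liver, fewer cells of a type and less RNA per cell cannot be told apart.

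Bmal1-/- libraries 5 and 6 stood apart from the other 10. On the first principal component, which held 37.5% of the variance, they sat at 77.8 and 62.2, while the other 10 libraries lay at 13.9 or below. The summed level of 21 major urinary protein (Mup) genes was 29069 to 55749.6 CPM in wild type and 15383 to 31093 CPM in Bmal1-/- libraries 1 to 4. It was 62.2 CPM in library 5 and 922 CPM in library 6, below the lowest Bmal1-/- library of any other time (1999.9 CPM). Further male-biased liver genes were low in these libraries. The transporter gene Slco1a1 was at 1.12 and 11.95 CPM against at least 272 CPM in Bmal1-/- libraries 1 to 4, the elongase gene Elovl3 at 1.02 and 38.6 CPM against at least 321 CPM, and the steroid dehydrogenase gene Hsd3b5 at 0.914 and 7.29 CPM against at least 201 CPM. The fasting- and stress-responsive Igfbp1 reached 494 and 467 CPM against 19.1 to 47.4 CPM in Bmal1-/- libraries 1 to 4, and the metallothioneins Mt1 and Mt2 together reached 1611 and 2394 CPM. Wild-type library 5 shared part of this pattern, with 182 CPM of Igfbp1, 1571 CPM of the metallothioneins and 14.8 CPM of Elovl3. Results are therefore given with all 12 libraries, and again without Bmal1-/- libraries 5 and 6 where that ended a call or moved a value more than 1.5-fold; the part of these libraries in other results was not tested.

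**Figure D1:**
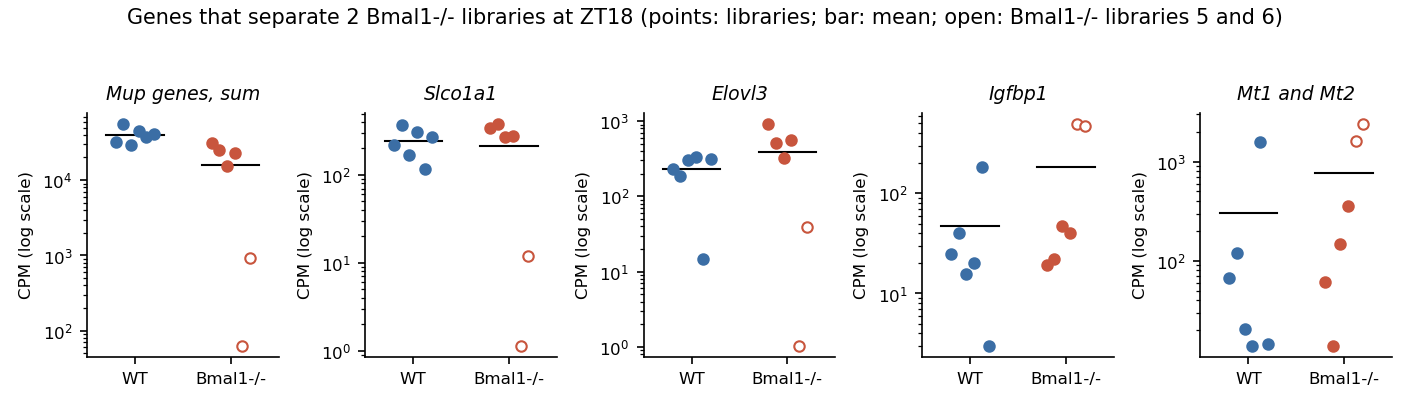
TMM-scaled CPM at ZT18 on a log axis (y) by genotype (x) for the Mup sum, Slco1a1, Elovl3, Igfbp1 and the sum of Mt1 and Mt2, with 1 point per library, a bar at each group mean and open points for Bmal1-/- libraries 5 and 6. The open points lie lowest of all 12 libraries for the Mup sum and Slco1a1 and highest for Igfbp1 and the metallothioneins.

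At ZT18 1037 of 11965 genes tested were called changed in Bmal1-/- livers (8.67%). Of these, 490 were higher (4.10%) and 547 lower (4.57%), and 432 changed at least 2-fold (3.61%), 228 of them higher and 204 lower. The median change over all genes tested was 0.01. With total-count scaling the median was 0.20, and 1613 of 1940 called genes were higher (83.1%, against 47.3% with TMM), with 816 of the 1037 genes still called and none of the 1037 reversed. Without Bmal1-/- libraries 5 and 6, 1022 of 11867 genes were called (8.61%), 453 higher (3.82%) and 569 lower (4.79%). All 1018 of the 1037 genes that could be tested there kept their sign, and 682 kept their call, or 684 when wild-type library 5 was also left out. Leaving out 1 library gave 666 to 1118 called genes, with 666 without wild-type library 6 and 669 without wild-type library 2. The libraries did not overlap between genotypes for 555 genes (4.64%), 486 of which were also called.

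The tag level of Arntl itself was not called changed at ZT18. It ranged from 8.16 to 12.4 CPM in wild type (median 10.9) and from 7.52 to 16.9 CPM in Bmal1-/- (median 11.9). The groups overlapped, and the change was 0.26 (SE 0.20, adjusted p = 0.46); without Bmal1-/- libraries 5 and 6 it was -0.01 (adjusted p = 0.98). A 3′ tag counts transcripts whether or not an exon upstream of its site is deleted, and the labels do not give the exons, so this level does not check the knockout. Inside the gene, the site at chr7:113243577-113243616 was at 2.47 CPM in wild type and 2.36 CPM in Bmal1-/-. The site at chr7:113243662-113243709 was at 2.08 ± 0.564 and 3.83 ± 1.35 CPM (SD). Near the gene end, the site at chr7:113314007-113314034 was at 1.46 and 1.25 CPM. Wild-type Arntl ran from a mean of 0.86 CPM at ZT10 to 13.2 CPM at ZT22, while the Bmal1-/- means stayed between 9.01 and 12.5 CPM at the 6 times.

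Of 3 activator genes tested, Npas2 rose (4.10% of all genes tested did) and Clock and Arntl were not called. Npas2, the paralog that can replace CLOCK, ranged from 0 to 1.12 CPM in wild type (median 0.316) and from 2.95 to 9.13 CPM in Bmal1-/- (median 5.43). Every Bmal1-/- library was above every wild-type library, and the change was 3.86, SE 0.53, adjusted p = 0.000419. Npas2 passed the count minimum through Bmal1-/- alone. Clock was at 45.6 CPM ± 4.84 (SD, n = 6) in wild type and 53.1 CPM ± 2.76 (SD, n = 6) in Bmal1-/-, a change of 0.22 (adjusted p = 0.188). Arntl2, the paralog of Arntl, was below the count minimum.

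Among the 5 Per and Cry genes, which encode the repressors, both cryptochromes rose with all 12 libraries and Per3 fell (4.10% and 4.57% of all genes tested did). Per3 ranged from 5.01 to 11.7 CPM in wild type (median 6.52) and from 2.31 to 4.90 CPM in Bmal1-/- (median 3.15), without overlap, a change of -1.21, SE 0.25, adjusted p = 0.00837. Cry1 ranged from 26.1 to 61.9 CPM in wild type (median 30.6) and from 48.6 to 88.7 CPM in Bmal1-/- (median 58.1), a change of 0.80, SE 0.22, adjusted p = 0.0346. The lowest Bmal1-/- libraries of Cry1 overlapped the highest wild-type ones. Cry2 ranged from 11.8 to 17.6 CPM in wild type (median 13.98) and from 17.7 to 44.1 CPM in Bmal1-/- (median 21.2), a change of 0.78, SE 0.21, adjusted p = 0.0320. Cry2 did not overlap, and Bmal1-/- library 5 held its highest value. Neither cryptochrome kept its call without Bmal1-/- libraries 5 and 6, where the changes were 0.58 (adjusted p = 0.122) for Cry1 and 0.47 (adjusted p = 0.0616) for Cry2. Both were called when wild-type library 5 was left out as well (adjusted p = 0.00276 and 0.0339). Leaving out 1 library at a time ended the call of Cry1 in 8 of 12 fits (wild-type 1, 2, 3, 4 and 6 and Bmal1-/- 4, 5 and 6, largest adjusted p = 0.0777). For Cry2 it did so in 5 of 12 (wild-type 1 to 4 and Bmal1-/- 6, largest adjusted p = 0.0713). Per1 changed by -0.31 (adjusted p = 0.679) and Per2 by -0.63 (adjusted p = 0.121), and neither was called.

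Of the nuclear receptors of the second loop, Nr1d2 fell (4.57% of all genes tested did) and Rora was not called. Nr1d2 (REV-ERB beta) ranged from 17.1 to 33.98 CPM in wild type (median 23.2) and from 2.51 to 14.2 CPM in Bmal1-/- (median 4.88). The groups did not overlap, and the change of -1.79, SE 0.39, adjusted p = 0.0134 became -2.59 (adjusted p = 5.75e-05) without Bmal1-/- libraries 5 and 6. Nr1d1 (REV-ERB alpha) was at its wild-type trough, with 0.783 CPM ± 0.478 (SD, n = 6) in wild type and 0.816 CPM ± 0.659 (SD, n = 6) in Bmal1-/-, and was below the count minimum at ZT18. Its wild-type mean at ZT6 was 42.1 CPM. Rora, a ROR activator gene, changed by 0.21 (adjusted p = 0.360).

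Clock output genes were lower where they were called: 5 of 10 tested fell (4.57% of all genes tested did), none rose, and their median change was -0.54. Noct, which encodes the rhythmic phosphatase nocturnin, ranged from 6.33 to 18.2 CPM in wild type (median 13.9) and from 0.508 to 7.25 CPM in Bmal1-/- (median 1.58), a change of -2.53, SE 0.52, adjusted p = 0.0101. Bmal1-/- library 4 held the highest Noct value of its group, and it overlapped the wild-type range. Usp2, a ubiquitin protease gene, ranged from 26.4 to 68.5 CPM in wild type (median 42.7) and from 8.41 to 23.7 CPM in Bmal1-/- (median 9.70) without overlap, a change of -1.75, SE 0.31, adjusted p = 0.00369. Nampt, the rate-limiting enzyme of NAD+ salvage, fell by 0.95 (adjusted p = 0.00501), and Wee1, a cell-cycle kinase gene, changed by -0.82 (adjusted p = 0.0203, and 0.0505 without wild-type library 2). Dbp, a PAR bZIP activator whose wild-type mean was 4.39 CPM at ZT18 and 99.9 CPM at ZT10, changed by -0.93 (adjusted p = 0.0379); 8 of 12 fits without 1 library ended its call (wild-type 2 to 5 and Bmal1-/- 1, 4, 5 and 6, largest adjusted p = 0.102), as did leaving out Bmal1-/- libraries 5 and 6 together (adjusted p = 0.0970). With total-count scaling 3 of the 5 kept their call, and Dbp and Wee1 did not. Tef (-0.16), Hlf (0.12), Nfil3 (0.43) and Bhlhe40 (-0.27) were not called. Among 7 clock kinase, ligase and cofactor genes, Cipc, which encodes a CLOCK-interacting repressor, changed by -0.87, SE 0.15, adjusted p = 0.00263, and the other 6 were not called.

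**Figure D2:**
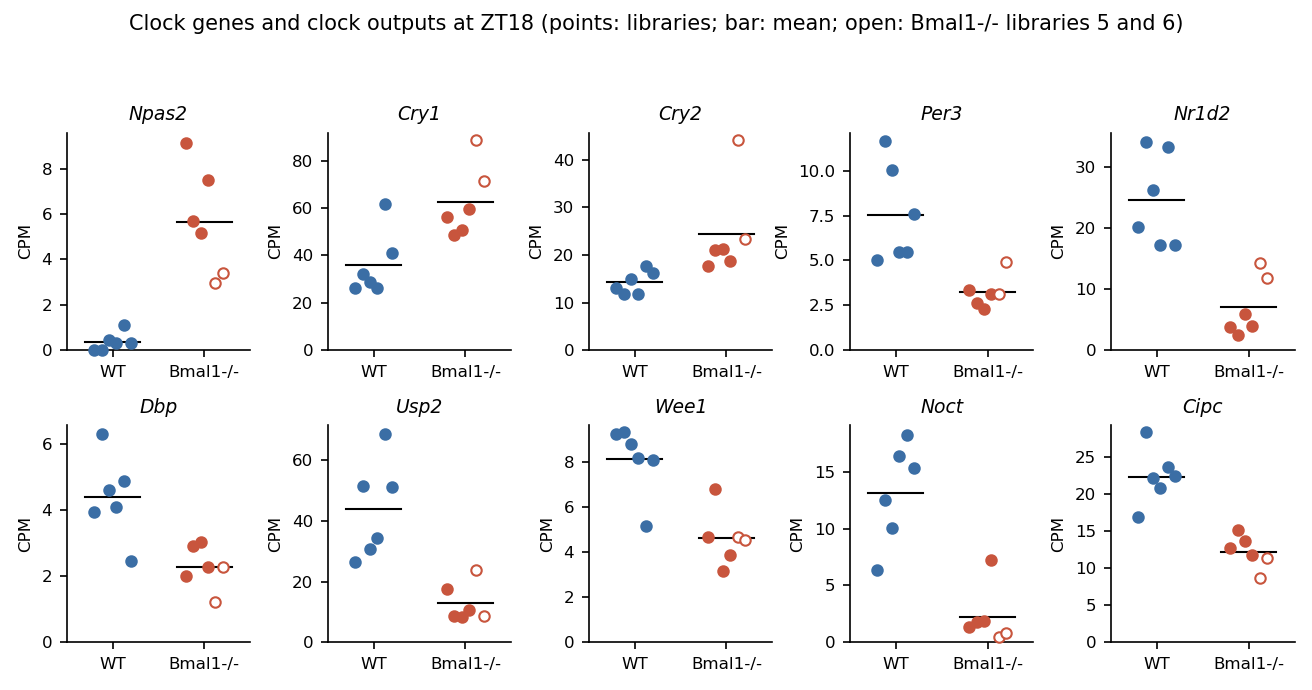
TMM-scaled CPM (y) by genotype (x) for 10 clock and clock output genes at ZT18, with 1 point per library, a bar at the group mean and open points for Bmal1-/- libraries 5 and 6. Npas2 is higher and Per3, Nr1d2, Usp2 and Cipc are lower in every Bmal1-/- library than in any wild-type library.

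Promoter windows from RefSeq (build GRCm38.p6, 250 bases before to 50 after the start) were matched for 26 of the 32 listed clock genes. Those of Cry1 and Cipc are shown because both genes carry an E-box in the window and were called in opposite directions, and that of Per3 because it carries D-box motifs. Capitals mark the E-box CACGTG in Cry1 and Cipc and the D-box TTATGTAA in Per3, and each sequence runs 5′ to 3′ on the gene's strand.
Cry1, chr10:85185005-85185304, minus strand: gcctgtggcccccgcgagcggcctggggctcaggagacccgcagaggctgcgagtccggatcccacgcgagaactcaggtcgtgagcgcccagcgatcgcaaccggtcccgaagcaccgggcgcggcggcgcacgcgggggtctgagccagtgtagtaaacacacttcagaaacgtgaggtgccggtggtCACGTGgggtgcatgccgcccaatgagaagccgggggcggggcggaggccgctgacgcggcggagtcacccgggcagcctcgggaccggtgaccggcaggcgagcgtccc
Cipc, chr12:86947093-86947392, plus strand: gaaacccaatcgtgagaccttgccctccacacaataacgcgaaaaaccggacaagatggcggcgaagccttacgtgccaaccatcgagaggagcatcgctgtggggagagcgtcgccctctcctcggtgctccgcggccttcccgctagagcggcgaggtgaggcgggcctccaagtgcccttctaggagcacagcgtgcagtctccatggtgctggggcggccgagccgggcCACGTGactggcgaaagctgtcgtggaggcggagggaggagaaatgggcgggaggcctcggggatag
Per3, chr4:151044616-151044915, minus strand: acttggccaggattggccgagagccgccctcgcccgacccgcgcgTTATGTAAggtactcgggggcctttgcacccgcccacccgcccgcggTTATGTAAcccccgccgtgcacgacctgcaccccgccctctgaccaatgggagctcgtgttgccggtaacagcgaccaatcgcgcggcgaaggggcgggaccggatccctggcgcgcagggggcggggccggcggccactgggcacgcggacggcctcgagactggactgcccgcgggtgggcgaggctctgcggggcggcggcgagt
The E-box begins 60 bases before the annotated start in Cry1, which was higher in Bmal1-/- at ZT18, and 17 bases before it in Cipc, which was lower. Of the 26 windows, 6 held an E-box and 2 a D-box. Per1 and Tef held an E-box and Timeless a D-box, and these genes were not called. Usp2, Nr1d2, Noct, Nampt and Dbp were called lower and held neither motif in the window. CACGTG, which reads the same on both strands, was present in 12.7% of the promoters of higher genes (39 of 308), 8.68% of those of lower genes (35 of 403) and 10.5% of those of all genes tested (910 of 8681). The D-boxes searched, TTATGTAA and TTACGTAA on either strand, were in 0.974% (3), 2.48% (10) and 0.749% (65) of the same promoters, so these shares rest on few genes. The ROR motifs TAGGTCA and TGGGTCA on either strand were in 3.90% (12), 6.45% (26) and 5.33% (463). Over all 19786 promoters the shares were 7.81% for the E-box, 1.03% for the D-boxes and 5.94% for the ROR motifs. None of these motifs contains another, though CACGTG and TTACGTAA share ACGT and the ROR motifs share GGTCA. A match describes the window only.

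Called lipogenic genes were lower in Bmal1-/- livers with 1 exception. Of 20 tested, 8 fell and 1 rose (4.57% and 4.10% of all genes tested did), with a median change of -1.09, and without Bmal1-/- libraries 5 and 6 the counts were 8 and 0. Thrsp (Spot 14), which promotes fatty acid synthesis, ranged from 182 to 2069.5 CPM in wild type (median 937) and from 15.8 to 104 CPM in Bmal1-/- (median 48.9). No library overlapped, and the change was -4.29, SE 0.63, adjusted p = 0.00190. Fasn, the fatty acid synthase gene, ranged from 135 to 938 CPM in wild type (median 380.0) and from 38.1 to 135 CPM in Bmal1-/- (median 82.7), a change of -2.46, SE 0.48, adjusted p = 0.00852. Acacb, the acetyl-CoA carboxylase of the mitochondrial surface, ranged from 16.97 to 50.6 CPM in wild type (median 29.4) and from 2.65 to 7.73 CPM in Bmal1-/- (median 3.49), a change of -3.02, SE 0.33, adjusted p = 0.000119. Acacb did not overlap between genotypes, and for Fasn the highest Bmal1-/- library (134.6 CPM) lay just below the lowest wild-type library (135.1 CPM). Scd1, the stearoyl-CoA desaturase gene, ranged from 335 to 6042 CPM in wild type (median 1246) and from 183 to 629.7 CPM in Bmal1-/- (median 287), a change of -2.97, SE 0.69, adjusted p = 0.0234, with overlapping groups. Its call was lost without Bmal1-/- library 5 (adjusted p = 0.0546), without library 6 and without both, where the change was -2.79 (adjusted p = 0.0997). The desaturase genes Fads2 and Fads1 changed by -1.26 and -0.97 (adjusted p = 0.00209 and 0.00596). Mlxipl, which encodes the glucose-sensing activator ChREBP, changed by -0.52 (adjusted p = 0.0465, lost in 9 of 12 fits without 1 library, largest 0.107, and 0.0751 without Bmal1-/- libraries 5 and 6). Pnpla3, a lipid droplet protein gene, had 118 counts over the 6 wild-type libraries, from 1 to 58 in each, and 2 counts, both in library 5, in Bmal1-/-. Wild-type libraries 1 and 3 held 51 and 58 of the 118. It was called among the 8 (adjusted p = 0.0182), but passed the count minimum through wild type alone, fell below that minimum without either of wild-type libraries 1 and 3, and was not called without Bmal1-/- library 5 (adjusted p = 0.117). The ratio of wild type to Bmal1-/- was 70.5 (exact 95% interval 19.1 to 589, covering counting error only). Insig2, which retains the sterol-regulated activator SREBP in the endoplasmic reticulum, rose by 0.87 (adjusted p = 0.0294, and 0.0511 without Bmal1-/- libraries 5 and 6). It also lost its call in 5 of 12 fits without 1 library (wild-type 2, 4 and 6 and Bmal1-/- 4 and 6, largest adjusted p = 0.0685). Srebf1, which encodes SREBP-1, was not called (-0.34, adjusted p = 0.762), nor were Acly (-0.97) and Elovl6 (-2.16).

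Sterol and bile acid lists held 1 call each, beside 8.67% called among all genes tested. Of 20 genes of cholesterol synthesis and uptake, 1 fell (median change -0.21): the SREBP retention gene Insig1, by 0.83 (adjusted p = 0.0224, and 0.0508 without wild-type library 6). Of 15 bile acid genes 1 was called, Cyp27a1 of the acidic pathway, which ranged from 346 to 433 CPM in wild type (median 365) and from 188 to 293 CPM in Bmal1-/- (median 266) and changed by -0.60, SE 0.14, adjusted p = 0.0141. Cyp7a1, the rate-limiting enzyme of the classic pathway, changed by -0.02 (adjusted p = 0.985).

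In glucose and glycogen metabolism 4 of 17 genes fell (4.57% of all genes tested did) and none rose (median change -0.59), and 6 fell without Bmal1-/- libraries 5 and 6. Gys2, the liver glycogen synthase gene, ranged from 34.6 to 89.1 CPM in wild type (median 66.1) and from 18.7 to 29.03 CPM in Bmal1-/- (median 23.1), a change of -1.46, SE 0.18, adjusted p = 0.000208 without overlap. Pfkfb3, a regulator of glycolytic flux, changed by -1.28, Ppp1r3b, which brings a phosphatase to glycogen, by -0.86, and Fbp1 of gluconeogenesis by -0.50 (adjusted p = 0.0256, 0.0396 and 0.0263). These 3 lost their calls without Bmal1-/- libraries 5 and 6 (adjusted p = 0.0707, 0.0572 and 0.0504). Of them, Fbp1 was also lost without each of wild-type libraries 2, 3 and 6, Pfkfb3 in 6 and Ppp1r3b in 10 of the 12 fits without 1 library.

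Of 21 targets of PPAR alpha, the fatty acid receptor of fasting, 1 fell (4.57% of all genes tested did) and none rose (median change -0.23). Without Bmal1-/- libraries 5 and 6, 6 fell (4.79% of all genes tested did) and the median was -0.75. Cpt2, the mitochondrial carnitine transferase gene, changed by -0.52 (adjusted p = 0.0410, lost in 10 of 12 fits without 1 library, largest 0.0901).

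All called heat shock genes were lower. Of a list of 11 heat shock and 2 cold-inducible genes tested, 5 heat shock genes fell (4.57% of all genes tested did), none rose, and the median change was -0.55 over the 13 and -0.57 over the heat shock genes. Hspb1, a small heat shock protein gene, ranged from 10.6 to 46.5 CPM in wild type (median 21.5) and from 0.114 to 2.78 CPM in Bmal1-/- (median 1.68), a change of -4.03, SE 0.50, adjusted p = 0.000444 without overlap. Hsp90aa1, the inducible HSP90 gene, ranged from 437 to 1193 CPM in wild type (median 1009.7) and from 232 to 497 CPM in Bmal1-/- (median 370.5), a change of -1.27, SE 0.26, adjusted p = 0.00728. The groups of Hsp90aa1 overlapped. The HSP110 gene Hsph1 changed by -1.12, the HSP40 gene Dnaja1 by -0.66 and the mitochondrial co-chaperonin gene Hspe1 by -0.57 (adjusted p = 0.00464, 0.0257 and 0.0143). Dnaja1 lost its call without Bmal1-/- libraries 5 and 6 (adjusted p = 0.0511) and in 4 of 12 fits without 1 library (wild-type 2, 3 and 6 and Bmal1-/- 6). With total-count scaling 3 heat shock genes were lower, and the cold-inducible Cirbp and Rbm3 were higher. With TMM these 2 changed by 1.99 and 1.35 and were not called (adjusted p = 0.0558 and 0.107). They summed to 141 and 110.0 CPM in Bmal1-/- libraries 5 and 6, against 24.2 to 34.5 CPM in Bmal1-/- libraries 1 to 4.

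**Figure D3:**
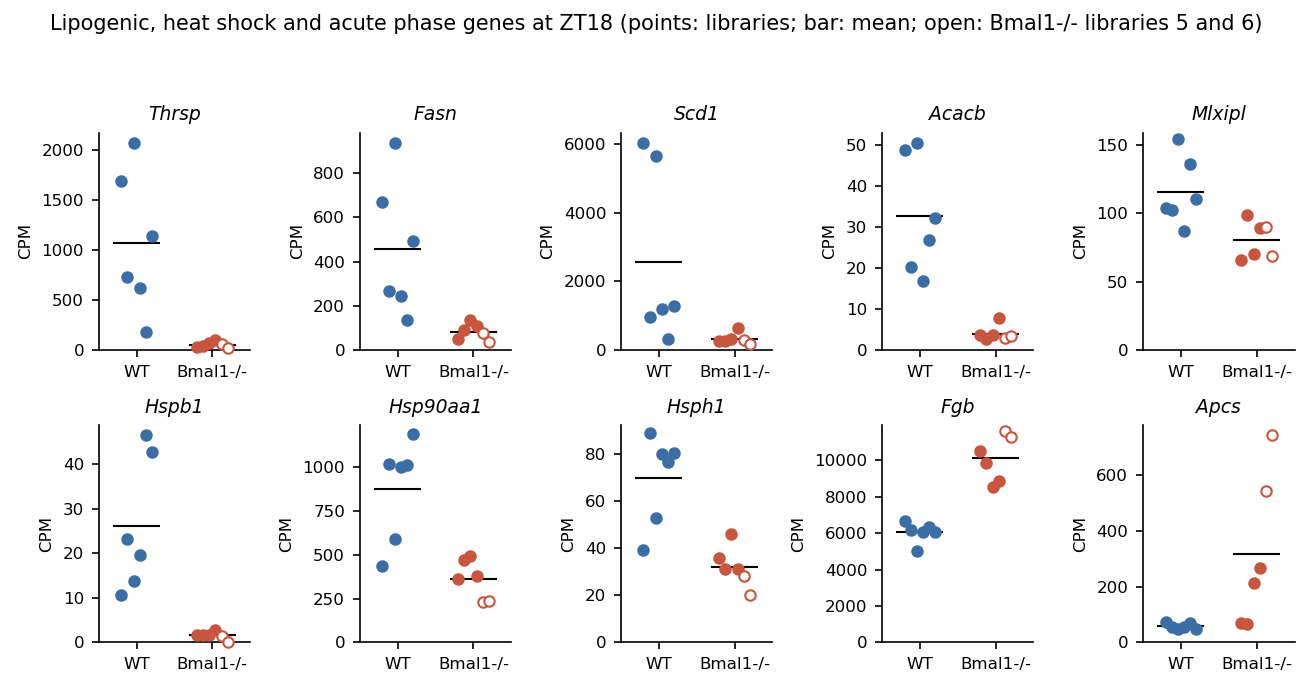
TMM-scaled CPM (y) by genotype (x) for 5 lipogenic, 3 heat shock and 2 acute phase genes at ZT18, with 1 point per library, a bar at the group mean and open points for Bmal1-/- libraries 5 and 6. Wild-type libraries spread widely for Thrsp, Fasn and Scd1, and Bmal1-/- libraries lie low together, while the highest Apcs and Fgb values are those of Bmal1-/- libraries 5 and 6.

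Acute phase genes moved in both directions, with 7 of 22 higher and 2 lower (4.10% and 4.57% of all genes tested were). Their median change was 0.14. Without Bmal1-/- libraries 5 and 6, 5 were higher and 2 lower, and the median was -0.35. The fibrinogen chain genes Fgb, Fgg and Fga rose by 0.74, 0.73 and 0.59 (adjusted p = 0.00369, 0.00464 and 0.0217). Fgb ranged from 5024 to 6672 CPM in wild type (median 6107) and from 8522 to 11596 CPM in Bmal1-/- (median 10177), without overlap. Fga lost its call without wild-type library 2 (adjusted p = 0.0505). Cp, the copper protein ceruloplasmin, ranged from 877 to 1370.0 CPM in wild type (median 972) and from 1865 to 2564 CPM in Bmal1-/- (median 2094), a change of 1.06, SE 0.16, adjusted p = 0.000680. Itih3, an inter-alpha-trypsin inhibitor chain, rose by 1.60 (adjusted p = 0.00387) and Itih4 by 0.71 (adjusted p = 0.0282). Apcs, serum amyloid P, ranged from 47.4 to 72.8 CPM in wild type (median 53.9) and from 66.6 to 745 CPM in Bmal1-/- (median 240.0), a change of 2.46, SE 0.57, adjusted p = 0.0231. Apcs changed by 1.43 (adjusted p = 0.0569) and Itih4 by 0.47 (adjusted p = 0.0707) without Bmal1-/- libraries 5 and 6. Apcs was also lost without each of wild-type libraries 2, 3, 4 and 6, and Itih4 without each of these and Bmal1-/- library 6. Serum amyloid A genes Saa4 and Saa3 were lower, at -1.73 and -1.81 (adjusted p = 0.00995 and 0.0231), and Saa3 lost its call without Bmal1-/- libraries 5 and 6 (adjusted p = 0.0769) and without each of wild-type libraries 2, 4 and 6 and Bmal1-/- library 5. Kupffer cell markers, with 0 of 12 called (8.67% of all genes tested were), summed to 250.3 to 607 CPM in wild type and 157 to 395 CPM in Bmal1-/-.

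Of 25 genes of xenobiotic metabolism and heme synthesis, 3 rose and 4 fell (4.10% and 4.57% of all genes tested did). Their median change was -0.25. Without Bmal1-/- libraries 5 and 6, 5 rose and 6 fell (3.82% and 4.79% of all genes tested did). Cyp2a5, the coumarin hydroxylase gene, ranged from 243 to 509.9 CPM in wild type (median 389) and from 41.9 to 112 CPM in Bmal1-/- (median 69.8), a change of -2.42, SE 0.24, adjusted p = 3.05e-05. Every Bmal1-/- library was below every wild-type one. The carboxylesterase genes Ces2c and Ces2a changed by -2.79 and -0.45, and the heme synthesis gene Cpox by -0.68 (adjusted p = 0.0251, 0.0458 and 0.0207). The P450 genes Cyp3a25, Cyp2c37 and Cyp2c29 rose by 1.13, 1.21 and 0.93 (adjusted p = 0.00743, 0.0441 and 0.0416). Cyp2c37 was at 0.91 (adjusted p = 0.192) and Ces2a at -0.44 (adjusted p = 0.0759) when Bmal1-/- libraries 5 and 6 were left out. Cyp2c37, Cyp2c29 and Ces2a lost their calls in 9, 10 and 10 of 12 fits without 1 library, Ces2c in 3 (wild-type 3, 4 and 6) and Cpox in 2 (wild-type 3 and 4). In the glutathione list, 2 of 23 rose and 2 fell (median change -0.18), beside 4.10% and 4.57% of all genes tested. Without Bmal1-/- libraries 5 and 6, 2 of this list rose and 4 fell, beside 3.82% and 4.79%. The transferase gene Gstm2 ranged from 36.6 to 94.1 CPM in wild type (median 66.1) and from 115 to 382 CPM in Bmal1-/- (median 185) and rose by 1.68, SE 0.29, adjusted p = 0.00287, without overlap. Gstm1 rose by 0.94 (adjusted p = 0.0131), and Gsta3 fell by 1.26 (adjusted p = 0.00486). Gsta1 changed by -2.66 (adjusted p = 0.0354) and by -3.66 (adjusted p = 0.0224) without Bmal1-/- libraries 5 and 6, and lost its call in 8 of 12 fits without 1 library (largest adjusted p = 0.0735). The Cyp2a, Cyp2c, Cyp3a, Ces2, Gst, Mup, Sult2a and Nat8 families hold near-identical copies whose counts may be split between members, so the values of single members are uncertain.

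The medians of sex-biased liver genes depended on Bmal1-/- libraries 5 and 6. The counts below stand beside 4.10% of all genes tested that rose and 4.57% that fell. Of 27 male-biased genes 2 fell, Mup15 and Cyp2f2, with a median change of -0.80 (-0.31 without Bmal1-/- libraries 5 and 6). Of 18 female-biased genes tested 3 rose (Ntrk2, Sult1e1 and Prlr) and 1 fell (Cyp2a4), with a median of 0.80 that became -0.38 without those libraries. Sult1e1, the estrogen sulfotransferase gene, ranged from 0 to 4.62 CPM in wild type (median 0.166) and from 0.736 to 110.4 CPM in Bmal1-/- (median 15.3), and it passed the count minimum through Bmal1-/- alone. It was called at 5.34, SE 1.36, adjusted p = 0.0365, but changed by 3.12 (adjusted p = 0.127) without Bmal1-/- libraries 5 and 6. Prlr, the prolactin receptor gene, changed by 0.87, SE 0.22, adjusted p = 0.0257, and by 0.91 (adjusted p = 0.0512) without them, and 6 of 12 fits without 1 library ended its call (wild-type 2, 3, 4 and 6 and Bmal1-/- 3 and 4).

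A total of 8 genes were named for the largest rises among genes called, not overlapping and with enough counts. Ntrk2, the BDNF receptor gene, ranged from 0.167 to 1.07 CPM in wild type (median 0.622) and from 7.62 to 45.8 CPM in Bmal1-/- (median 31.5), a change of 5.42, SE 0.60, adjusted p = 0.000230. Lpl, lipoprotein lipase, which adult liver normally expresses at a low level, ranged from 9.80 to 19.7 CPM in wild type (median 16.97) and from 183 to 653 CPM in Bmal1-/- (median 403), a change of 4.74, SE 0.29, adjusted p = 2.62e-07. Defb1, a beta-defensin gene, ranged from 0 to 0.700 CPM in wild type (median 0.248) and from 2.09 to 17.8 CPM in Bmal1-/- (median 12.9), a change of 5.10, SE 0.57, adjusted p = 0.000132. Absence of overlap was a condition for naming, so the separation of the groups adds no support. All 8 genes but Lpl had wild-type means of 0.327 to 2.09 CPM, so they met the count minimum for naming through Bmal1-/- alone. The lysophospholipase gene Gdpd3 changed by 5.01, the HMG-box gene Tox2 by 4.90, the lysyl oxidase-like gene Loxl4 by 4.41 and the formin gene Fmn2 by 3.80 (adjusted p = 2.24e-08, 4.01e-05, 6.58e-06 and 0.000675). Sult2a7, a sulfotransferase gene, ranged from 0.333 to 4.22 CPM in wild type (median 1.96) and from 4.83 to 277 CPM in Bmal1-/- (median 11.6), a change of 4.70, SE 1.25, adjusted p = 0.0433. Its highest value was in Bmal1-/- library 6, it changed by 1.98 (adjusted p = 0.0329) without Bmal1-/- libraries 5 and 6, and 7 of 12 fits without 1 library ended its call (wild-type 1 to 6 and Bmal1-/- 5, largest adjusted p = 0.0923).

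The 8 largest falls were led by Nat8, an N-acetyltransferase gene, which ranged from 3.50 to 81.1 CPM in wild type (median 41.9) and from 0.342 to 1.09 CPM in Bmal1-/- (median 0.771), a change of -5.88, SE 0.72, adjusted p = 0.000592. Mme, which encodes the peptidase neprilysin, ranged from 10.4 to 80.3 CPM in wild type (median 32.8) and from 0.406 to 4.52 CPM in Bmal1-/- (median 2.95), a change of -4.07, SE 0.62, adjusted p = 0.00258. Both genes were low in all 6 Bmal1-/- libraries, including libraries 5 and 6, though the naming rule itself required no overlap. All 8 genes but Mup15 and Thrsp had Bmal1-/- means of 0.544 to 2.81 CPM, so they met the count minimum through wild type alone. Nat8f5, a relative of Nat8, changed by -5.35 and by -4.73 (adjusted p = 0.000866) without Bmal1-/- libraries 5 and 6. Mup15 changed by -4.97, the small membrane protein gene Smim22 by -4.86 and the collagen gene Col27a1 by -4.46 (adjusted p = 0.0230, 3.02e-06 and 0.000483). Thrsp and Hspb1, described above, completed the 8. Unnamed or pseudogene loci that met the same rule were 1500017E21Rik (3.59), Gm45043 (3.27) and AC160029.1 (2.80) among rises, and Mup-ps16 (-4.63), Gm13775 (-4.36) and Gm43305 (-3.17) among falls. Gm45043 changed by 2.33 (adjusted p = 0.00541), Gm13775 by -3.76 (adjusted p = 0.00818), Mup-ps16 by -4.01 (adjusted p = 0.00258) and Gm43305 by -2.67 (adjusted p = 0.0564) without Bmal1-/- libraries 5 and 6.

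Other lists had 1 to 4 called members each or none, beside 8.67% called among all genes tested (4.10% higher and 4.57% lower). The kinase gene Sgk1 (1.24, adjusted p = 0.0326, lost in 8 of 12 fits without 1 library) was the 1 called of 19 glucocorticoid targets, Foxo3 (-0.74, adjusted p = 0.00694) of 19 growth hormone, IGF and insulin genes, the aminotransferase gene Gpt2 (-1.32, adjusted p = 0.000181) of 22 urea cycle and amino acid genes, and the chaperone gene Dnajc3 (-0.52, adjusted p = 0.0367, lost in 8 fits and without Bmal1-/- libraries 5 and 6) of 20 endoplasmic reticulum folding genes. Without Bmal1-/- libraries 5 and 6, 3.82% of all genes tested rose and 4.79% fell. In that fit 1 glucocorticoid target rose and 3 fell, and the median change of this list went from -0.24 to -0.56. In the urea cycle and amino acid list 3 genes fell, and in the endoplasmic reticulum folding list 2 rose and 3 fell. Of 29 interferon and antigen presentation genes 3 fell: Ifi27 (-0.78, lost in 9 fits), Igtp (-0.81) and H2-K1 (-0.80), and 1 without Bmal1-/- libraries 5 and 6. None of 26 cleavage and polyadenylation factor genes was called (median change 0.14), whereas 6 were higher with total-count scaling. Of 9 mitochondrially encoded genes 4 fell (median change -0.56). With total-count scaling the following called genes lost their call: Alb, Ces2a, Cpox, Cpt2, Dbp, Dnaja1, Dnajc3, Fbp1, Hspe1, Ifi27, Mlxipl, Ppid, Ppp1r3b, Stab1, Wee1 and mt-Nd5.

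The tissue label was checked against cell type markers, whose calls stand beside 8.67% called among all genes tested. Hepatocyte markers summed to 77415 to 107895 CPM in wild type and 61618 to 82408 CPM in Bmal1-/-, and of 11 tested Fgb rose and Alb fell (-0.74, adjusted p = 0.0274, lost in 5 of 12 fits without 1 library). Sinusoidal endothelial markers summed to 378 to 494 CPM and 380 to 437 CPM, with 1 of 12 lower (Stab1, -0.53, adjusted p = 0.0432, lost in 10 fits). Stellate cell and fibroblast markers summed to 308 to 426 CPM and 358 to 584 CPM, with 0 of 11 called. The cholangiocyte list summed to 21.7 to 37.2 CPM in wild type and 46.4 to 119.7 CPM in Bmal1-/-, without overlap, and of its 2 tested genes Sox9 rose (1.27, adjusted p = 0.00157). Its defining keratin genes Krt19 and Krt7 and Epcam had mean levels of 0.680 CPM or below in both genotypes. Lymphocyte (2 tested), adipocyte (3 tested) and erythroid (5 tested) markers had 0 called. Of the adipocyte list, Lep and Plin1 were at 0 in all 12 libraries and Adipoq was at 0.342 CPM or below, and Car3, which hepatocytes also express, made up nearly all of its sum of 1802 to 8074 CPM in wild type and 53.1 to 5522 CPM in Bmal1-/-. Erythroid markers summed to 608 to 4223 CPM and 26.3 to 5389.8 CPM. The part of these markers in the changes above was not tested.

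ZT18 was set beside the other 5 times, at each of which the same fit was made on its own 12 libraries. The share of genes called was 3.35% at ZT2 (406), 9.93% at ZT6 (1190), 19.0% at ZT10 (2295), 8.38% at ZT14 (1015) and 5.28% at ZT22 (644). Of the 1037 genes called at ZT18, 640 were also called at ZT10 (61.7% of the ZT18 list and 27.9% of the ZT10 list), 454 at ZT14 (43.8% and 44.7%), 420 at ZT6 (40.5% and 35.3%), 359 at ZT22 (34.6% and 55.7%) and 219 at ZT2 (21.1% and 53.9%). Without the 2 ZT22 libraries that held Xist, 452 genes were called at ZT22 (3.72%), 270 of them among the 1037. Of the 1037, 94 were called at all 6 times and 244 at none of the other 5, or 89 and 261 without these 2 libraries. Nat8, Mme, Hspb1 and Cry1 were called at every time, and Npas2, Nr1d2, Ntrk2 and Lpl at 5 of 6. Lpl means in Bmal1-/- stayed between 298 and 420.1 CPM over the day, while wild type ran from 15.8 CPM at ZT18 to 61.1 CPM at ZT14. Fasn means at ZT18 were 458 CPM in wild type and 83.1 CPM in Bmal1-/-. Over the 6 times its means ran from 334 to 458 CPM in wild type and from 83.1 to 318 CPM in Bmal1-/-. With all libraries it was called at 1 of the 6 times, ZT18, and so not at ZT2. Its change was -1.30 at ZT6, -1.52 at ZT10, -1.46 at ZT14 and -1.61 at ZT22 (adjusted p = 0.163, 0.0859, 0.0922 and 0.0619). Without the 2 ZT22 libraries that held Xist, the ZT22 change was -1.88 (adjusted p = 0.0379). The ZT18 change was not called different from the other times, also without those 2 libraries (adjusted p = 0.673).

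Whether the Bmal1-/- effect at ZT18 differed from its mean over the other 5 times was tested in 1 fit over all 72 total RNA libraries. This difference was called for 17 of 12082 genes (0.141%; 8 positive and 9 negative), and 919 had an unadjusted p under 0.05. Without Bmal1-/- libraries 5 and 6, 1 gene was called (0.00828%), Cry1, with 636 at an unadjusted p under 0.05, and none when wild-type library 5 was also left out. Without the 2 ZT22 libraries that held Xist, 24 genes were called (0.199%), all 17 among them. Leaving out 1 library gave 8 genes without Bmal1-/- library 5, 8 without 6, 44 without 3, 28 without 1, 27 without 4 and 26 without 2, and 29 without wild-type library 1. For Cry1 the ZT18 effect minus the mean of the others was -1.10 on the log2 scale (SE 0.23, adjusted p = 0.00931), and -1.31 (adjusted p = 0.0243) without Bmal1-/- libraries 5 and 6. It was not called without wild-type library 5 (adjusted p = 0.0787). Cry1 in wild type ran from 5.80 CPM at ZT6 to 38.6 CPM at ZT22 and stood at 36.1 CPM at ZT18, while Bmal1-/- means stayed between 48.7 and 62.6 CPM.

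Nr1d1 was a further clock gene in this set. Its difference was 4.25 (adjusted p = 0.00141), and 3.71 (adjusted p = 0.159) without Bmal1-/- libraries 5 and 6. At ZT18, its wild-type trough, it was below the count minimum, with means of 0.783 CPM in wild type and 0.816 CPM in Bmal1-/-. Bmal1-/- means stayed between 0.387 and 0.894 CPM over the day, so it entered this test through wild type alone. The positive difference follows from lower Bmal1-/- levels at the other times and is no separate result about ZT18. Hsp90aa1 peaked at ZT18 in wild type (877 CPM) and was at 363 CPM in Bmal1-/-, and its difference was -1.29 (adjusted p = 0.00190). Abcg8, which pairs with Abcg5 to export sterols into bile, was at its wild-type trough at ZT18. It ranged from 19.7 to 28.3 CPM in wild type (median 22.7) and from 44.4 to 92.6 CPM in Bmal1-/- (median 67.6) there, a change of 1.55, SE 0.16, adjusted p = 2.68e-05 without overlap, and its difference from the other times was 1.35 (adjusted p = 0.00190).

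The remaining genes named by rule were the membrane protein gene Tmem98 (3.37), the cold-inducible Cirbp (1.69), Dixdc1 (1.18) and the ubiquitin ligase gene March7 (0.64) with positive differences, and the glucocorticoid-induced Tsc22d3 (-1.14) and the cyclophilin gene Ppid (-0.56) with negative ones. Tmem98 stood at 87.97 and 54.6 CPM in Bmal1-/- libraries 5 and 6 and at 1.67 to 3.15 CPM in libraries 1 to 4. Its change at ZT18 went from 1.46, not called, to -1.89, called lower (adjusted p = 0.0432), without Bmal1-/- libraries 5 and 6. Its difference from the other times went from 3.37 to 0.03, and that of Cirbp to 0.41. Leaving out 1 library ended the call of this difference in 8 of 12 fits for Dixdc1 (wild-type 2 to 6 and Bmal1-/- 2, 5 and 6), 5 for Ppid (wild-type 2, 4 and 6 and Bmal1-/- 5 and 6), 4 for March7 (wild-type 4 and 6 and Bmal1-/- 5 and 6), and 2 each for Tmem98 and Cirbp (Bmal1-/- 5 and 6), with largest adjusted p of 0.189, 0.210, 0.223, 0.207 and 0.223. Directly between ZT18 and ZT6 the effect differed for 83 genes (0.687%), and for 22 without Bmal1-/- libraries 5 and 6 (0.182%), 18 of them among the 83. It differed for 39 genes without Bmal1-/- library 6 alone, 46 without library 5 and 48 without wild-type library 6. With all libraries the 83 included several clock and clock output genes. The ZT18 effect minus the ZT6 effect was negative for Noct (-3.45), Arntl (-2.33), Per1 (-2.30), Cry1 (-2.27) and Per2 (-1.80). It was positive for Nr1d1 (6.07), Dbp (2.85) and Nr1d2 (2.07).

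**Figure D4:**
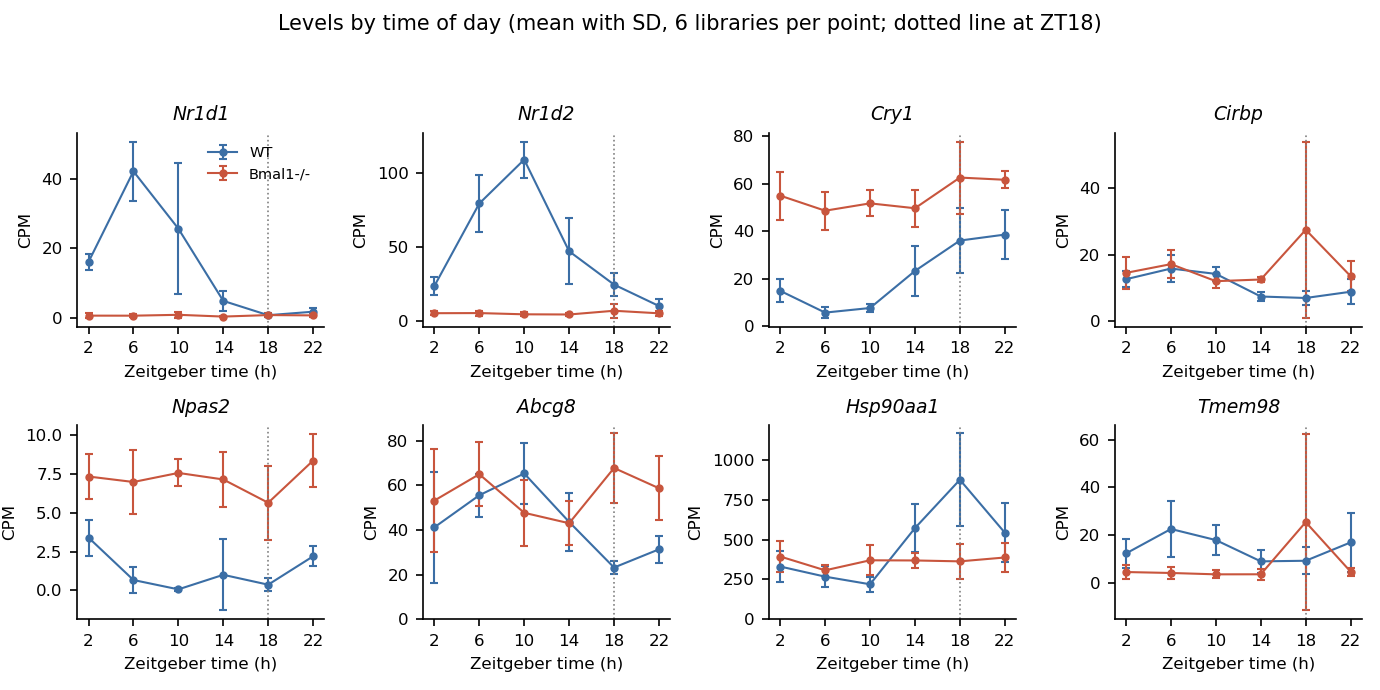
Mean TMM-scaled CPM ± SD (n = 6 libraries) by zeitgeber time in h for 8 genes in wild type and Bmal1-/-, with a dotted line at ZT18. At ZT18 the wild-type mean of Abcg8 is at its lowest, and Cirbp and Tmem98 in Bmal1-/- have wide SDs. The ZT22 points include the 2 libraries that held Xist.

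The authors' list of polyadenylation sites allowed the 3′ end choice of genes to be compared. A gene's usage is the percentage of its site counts at each site, and 13621 sites in 4396 genes were tested with the gene's total as offset. Usage was called for 20 sites (0.147%) in 14 genes, 14 higher and 6 lower, and 1325 had an unadjusted p under 0.05. When Bmal1-/- libraries 5 and 6 were left out, 13 sites were called (0.0971%), 9 of them among the 20. Leaving out 1 library gave 58 sites without wild-type library 1, 35 without Bmal1-/- library 1 and 11 without each of wild-type libraries 3, 4 and 5. Positions are those of the authors' list on mm10.

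Rps13, a ribosomal protein gene on the minus strand of chromosome 7, gave the largest change. Its distal site at chr7:116331504-116331615, at the annotated gene end, took 55.8% to 77.9% in wild type (mean 66.8% ± 8.38, SD, n = 6) and 1.21% to 2.22% in Bmal1-/- (mean 1.78% ± 0.399, SD, n = 6; adjusted p = 1.22e-11). The rest of its counts lay at an upstream site at chr7:116332417-116332482. At the other 5 times all 30 wild-type libraries lay at 51.9% to 88.6% and 25 of 30 Bmal1-/- libraries at 0.280% to 4.27%. The other 5 Bmal1-/- libraries, 1 at ZT2, 2 at ZT10 and 2 at ZT14, lay at 55.7% to 67.6%, within the wild-type range. The level of Rps13 changed by -1.15 (SE 0.17, adjusted p = 0.000546). In Fam89a on chromosome 8, a site at chr8:124740540-124740589, 283 bases inside the annotated end, took 0% to 1.99% in wild type and 52.2% to 68.9% in Bmal1-/- (adjusted p = 6.19e-08), and the gene's level rose by 1.84 (adjusted p = 0.000103). At the other times all 30 wild-type libraries lay at 3.75% or below and 25 of 30 Bmal1-/- libraries at 36.6% to 79.8%. The other 5 Bmal1-/- libraries, 1 at ZT6, 1 at ZT14 and 3 at ZT22, lay at 0% to 11.8%.

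Smaller changes of usage were called in 5 more genes chosen by the rule. The distal site of Cyp2d40, a P450 gene, at chr15:82759824-82760037 went from 79.3% ± 8.22 to 47.5% ± 11.0 (SD, n = 6 per genotype; adjusted p = 0.0271), and its call was lost in 6 of 12 fits without 1 library (wild-type 3 to 6 and Bmal1-/- 3 and 6, largest adjusted p = 0.0850). In Paqr9, a progestin and adipoQ receptor gene, the most distal site at chr9:95567794-95567940 went from 19.2% ± 1.68 to 31.9% ± 4.69 (adjusted p = 0.00386). In Adh1, alcohol dehydrogenase, the proximal site at chr3:138289805-138289944 went from 8.49% ± 1.70 to 20.03% ± 5.62 (adjusted p = 0.00862, and 0.0504 without Bmal1-/- libraries 5 and 6). In the ribosomal protein gene Rpl34 the proximal site at chr3:130728789-130728851 went from 3.69% ± 0.861 to 15.0% ± 7.15 (adjusted p = 0.0171, and 0.0591 without them); its call was also lost without each of wild-type libraries 3, 4 and 5 (largest adjusted p = 0.0579). In Mup12 the site at chr4:60741127-60741231 went from 3.94% ± 0.903 to 26.1% ± 22.8 (adjusted p = 0.00252), with Bmal1-/- library 2 at 71.5% and near-identical Mup copies as a further uncertainty. Bmal1-/- libraries 5 and 6 lay at 20% and 8%. The gene held 5 to 13177 site counts per library, so the shares of the lowest libraries, and the absence of overlap, rest on few counts. The rule kept to sites that did not overlap between genotypes, in genes averaging at least 100 site counts. The count minimum alone left out Sec23ip, which averaged 84.5. Its site at chr7:128783931-128784005 went from 35.2% to 80.0% (adjusted p = 0.000107). Another at chr7:128783752-128783795 went from 44.4% to 11.3% (adjusted p = 0.00196). Both kept their calls in all 12 fits without 1 library. The mean usage of the most distal site over the 4396 genes was 44.6% ± 1.29 in wild type and 43.4% ± 1.86 in Bmal1-/- (SD, n = 6 each; p = 0.236, 2-sided exact permutation test of the library labels), a difference smaller than the spread between replicates. Without Bmal1-/- libraries 5 and 6 the difference was -2.05 points (p = 0.0524, the same exact test), and without Bmal1-/- library 2 alone it was -0.54 points (p = 0.463).

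**Figure D5:**
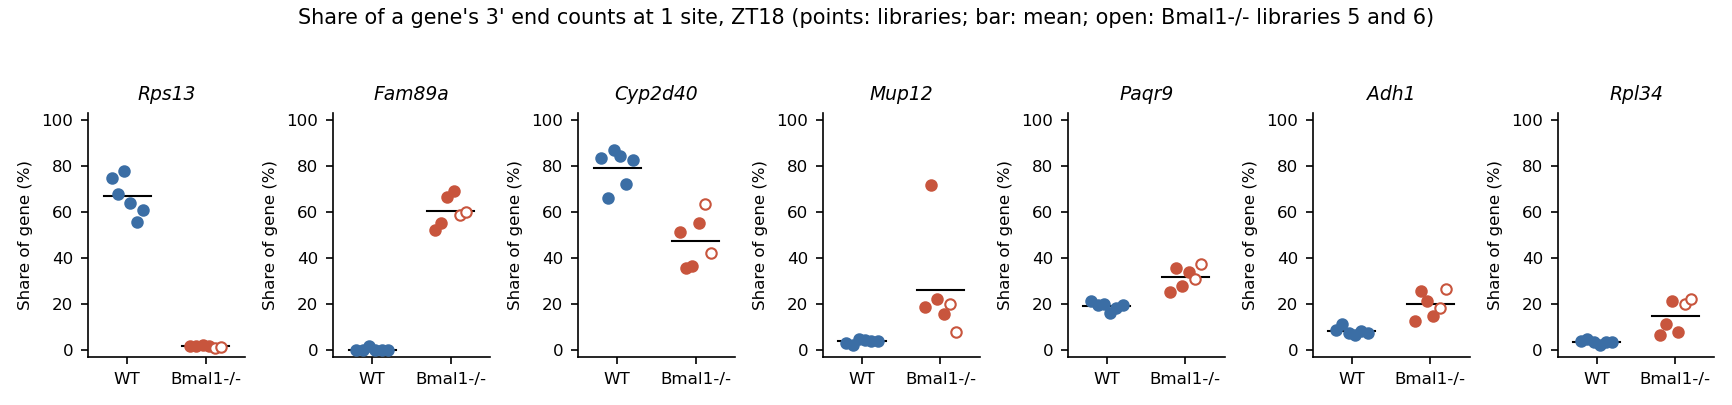
Usage in percent of the gene's site counts at ZT18 for the named site of 7 genes, 1 point per library by genotype, with a bar at the group mean and open points for Bmal1-/- libraries 5 and 6. The Rps13 site falls from 55.8% or above in each wild-type library to 2.22% or below in each Bmal1-/- library, and the Fam89a site rises from 1.99% or below to 52.2% or above.

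Genes near Arntl on chromosome 7 (chr7:113178471-113314126, plus strand in RefSeq GRCm38.p6) were examined by position. Within 10 Mb of Arntl 9 of 110 genes tested were called (8.18%), against 908 of 10582 on all other chromosomes (8.58%). The share was 7 of 46 (15.2%) within 5 Mb and 2 of 64 (3.1%) from 5 to 10 Mb. From 10 to 20 Mb it was 14 of 169 (8.28%), and beyond 20 Mb 47 of 570 (8.25%). Called genes within 5 Mb were Mical2, Dkk3 and 1110004F10Rik, which were higher, and Tead1, Rps13, Wee1 and Pik3c2a, which were lower. Dkk3 was low, at means of 0.869 CPM in wild type and 3.18 CPM in Bmal1-/-. The differences between these shares were not tested.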

How the data were processed

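Liver total RNA had been converted to QuantSeq 3′ libraries from 2 ug of RNA, per the labels' protocols. The submitters' processing notes name STAR 2.4.2a, HOMER and edgeR and the builds mm10 and GRCm38.p5, with no order. The authors deposited raw counts per gene (51912 genes) and raw counts per polyadenylation site, used here as deposited; the aligner settings and site calling are not given in the sources used here. Groups came from the labels, and depth was 6580945 to 9831142 gene counts per library. None of the 30 library pairs within a group was identical.

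Genes averaging 10 counts or more over the 12 libraries were tested with edgeR 4.0.16 (robust quasi-likelihood F test, TMM, Benjamini-Hochberg) in R 4.3.3; the standard error is the change divided by the square root of F. Differences from other times were fitted over 72 libraries in 12 groups. For usage, site counts were fitted with log(gene's site total + 0.5) as the offset, for sites with at least 5% of a gene averaging 50 counts; 27912 of 29199 sites were given to 1 gene (up to 1000 bp past its end), 2422 genes took their strand from their sites, and 660 sites were left out by a count check. Scripts were tested on simulated data.

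The comparison, gene lists and tests were chosen with earlier results of these data known. Genes were named by rule: list members called, the 8 largest rises and falls (called, groups not overlapping, at least 50 mean counts; unnamed loci and pseudogenes set aside, 3 each way), up to 6 genes each way by difference from other times, and the largest usage change of up to 8 genes averaging at least 100 site counts whose libraries did not overlap. Alternatives were median-ratio scaling, DESeq2 1.42.0, other count minimums, a replicate block, leaving out each library, replicates 1 to 3 or 4 to 6 alone, and all 72 libraries in 1 fit. Leaving out Bmal1-/- libraries 5 and 6, also with wild-type library 5, leaving out 2 ZT22 libraries that held Xist, and total-count scaling were chosen after seeing the data. A few genes are not reported here, and list counts leave them out. Promoters came from RefSeq (GRCm38.p6); no genome was used.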

Additional observations from a re-analysis of the deposited data

Results flagged for a closer look

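In 19 of 196 groups of 6 libraries checked, 1 library lay far from the other 5: its gap to the nearest, as a share of the group's range, exceeded Dixon's critical value, and chance flags about 1 in 20 groups. Values are TMM-scaled CPM. Bmal1-/- library 5 was highest for Cry2 (44.1) and Gsta1 (3.56). Bmal1-/- library 6 was highest for Sult2a7 (277) and Gm45043 (36.7). Bmal1-/- library 4 was highest for Noct (7.25), Scd1 (629.7), Acacb (7.73), Nat8f5 (1.93) and Gm43305 (8.46). Bmal1-/- library 2 was highest for Col27a1 (8.22) and library 1 for Mup-ps16 (2.95). Wild-type library 5 was highest for Cyp2c37 (292), Sult1e1 (4.62) and Prlr (208) and lowest for Wee1 (5.18), Nat8f5 (5.60) and Col27a1 (15.8). Wild-type library 3 was highest for Gsta1 (20.5) and library 1 for Dixdc1 (8.57).

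The Bmal1-/- effect at ZT18 differed from its mean at the other 5 times in 17 genes, and from its effect at ZT6 in 83 (edgeR's quasi-likelihood test, Benjamini-Hochberg adjusted). For the genes named, the ZT18 change minus the mean of the others was positive on the log2 scale for Nr1d1 (4.25), Tmem98 (3.37), Cirbp (1.69), Abcg8 (1.35), Dixdc1 (1.18) and March7 (0.64). It was negative for Hsp90aa1 (-1.29), Tsc22d3 (-1.14), Cry1 (-1.10) and Ppid (-0.56). Without Bmal1-/- libraries 5 and 6, Cry1 was the 1 gene of the 17 still called. Nr1d1 was below the count minimum at ZT18.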

How the results depend on the processing

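The 1037 called genes became 445 with replicates 1 to 3 alone, 243 with replicates 4 to 6 alone, 1940 with total-count scaling and 666 to 1118 without 1 library, and 535 were called in each of these 12 fits. Genes changed at least 2-fold (432) became 244 with a count minimum of 50 and 223 with replicates 4 to 6 alone. Genes whose ZT18 effect differed from the other times (17) became 47 with DESeq2, 2 with replicates 1 to 3, 36 with replicates 4 to 6, 1 without Bmal1-/- libraries 5 and 6, 0 without these and wild-type library 5, and 8 to 44 without 1 library. Against ZT6 (83) they became 40 with no low-count filter, 16 with replicates 1 to 3, 22 without Bmal1-/- libraries 5 and 6, 22 without these and wild-type library 5, and 39 to 116 without 1 library. Sites (20) became 3 with replicates 1 to 3, 13 without Bmal1-/- libraries 5 and 6, 8 without these and wild-type library 5, and 11 to 58 without 1 library. Fits on fewer samples have less power, and the cause of the other shifts was not tested. DESeq2 called 1494 genes at ZT18.

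With the replicate number as a block, 1096 genes, 18 sites and 29 genes with a different ZT18 effect were called, and Arntl changed by 0.23. The labels do not say that a number marks a shared source, and same-numbered libraries correlated at -0.0446 to 0.409, over 0.1 in 3 of 6 pairs, so the numbers were not taken as pairing the samples; 3 of 6 correlated best with their own number, a hint from the data only. Under the block 10 of the genes named lost their call (Dbp, Scd1, Mlxipl, Cpt2, Apcs, Cyp2c29, Sult2a7, Mup15, Gm43305 and Ppid), as did the named sites of Cyp2d40 and Mup12, and Elovl6 gained one.

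Of 80 called genes named, 52 kept their call in all 12 fits without 1 library and 28 lost it in at least 1. Reversed signs concern genes that were not called with all 12 libraries. Of these, Tmem98 was called lower with replicates 1 to 3 alone (adjusted p = 0.00496). It was also called lower without Bmal1-/- libraries 5 and 6 (adjusted p = 0.0432). Arntl was -0.16 with replicates 1 to 3 and -0.0107 without Bmal1-/- libraries 5 and 6 (0.15 to 0.37 without 1 library). Replicates 1 to 3 alone gave -0.11 for Hlf, -2.39 for Tmem98 and 0.10 for Tsc22d3. Replicates 4 to 6 alone gave 0.15 for Tef and 0.088 for Cyp7a1. Total-count scaling gave 0.023 for Tef, 0.16 for Cyp7a1 and 0.042 for Tsc22d3. Leaving out Bmal1-/- libraries 5 and 6, Hlf was -0.056, Srebf1 0.026, Tmem98 -1.89 and Tsc22d3 0.0096, and without wild-type library 5 as well Hlf was -0.12, Tmem98 -1.81 and Tsc22d3 0.15. Without 1 library Hmgcs1 ranged from -0.25 to 0.34 and Cyp7a1 from -0.24 to 0.21. The cause was not tested.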
